A study of Mus musculus with 6 samples.

Results

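The Fraser complex and the laminins are 2 groups of large proteins of the basement membrane, the sheet of matrix on which tubule cells rest. The 10 genes described here are Fras1, Frem1 and Frem2 of the Fraser complex and the laminin chain genes Lama1, Lama3, Lama5, Lamb1, Lamb2, Lamb3 and Lamc1, taken by symbol from the 32544 genes of the table. All 10 had reads in every library. They were picked with their values in this comparison already known, so their differences are given below as descriptions without a test.

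The libraries held polyadenylated RNA of proximal tubules dissected by hand from the S2 and S3 segments of C57Bl/6 mice, which the series calls control mice. The mice had received a single injection of aristolochic acid I (AA, 3 mg/kg), a plant toxin that forms DNA adducts in tubule cells, or of its solvent dimethyl sulfoxide (DMSO), and kidneys were taken 24 h later. Each group had 3 libraries, and the tubules in a library were pooled from 1 kidney each; the sources used here give no age or sex. Nothing in the labels ties each library to an animal of its own, so each SD and p-value covers only the spread between these libraries, which may be technical.

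A laminin is a cross-shaped molecule of 1 alpha, 1 beta and 1 gamma chain, joined inside the cell before secretion. The alpha chain carries the main contacts to integrins and dystroglycan on the cell surface. FRAS1, FREM1 and FREM2 bind one another beneath the basement membrane and depend on each other for their place there, and loss of the complex in mice or humans causes Fraser syndrome or related disorders with skin blisters and missing kidneys.

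Values are CPM, the reads of a gene per 1000000 counted reads of its library, and libraries held from 13304877 to 31136251 reads. DMSO replicates 1 and 2 held the most reads (23896026 and 31136251), the other 4 libraries at most 17815915, and an alternative fit puts a term on these 2 sets of libraries. Log2 values of libraries correlated at 0.970 to 0.980 within groups and 0.918 to 0.950 between groups. Log2 differences are AA minus DMSO in mean log2(CPM + 1), which understates differences of genes near 1 CPM, with the standard error (SE) of a model over the 14311 genes at 1 CPM or more in 3 or more libraries. Calls were made with limma's moderated test where the adjusted p was under 0.05. The log2 differences of the tested genes had a median of 0.21, which became -0.04 once library medians were equalised. Each log2 difference below shifts by about as much with that scaling. In bulk RNA, fewer cells of a type and less RNA per cell cannot be told apart.

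The RNA of 2 of the 3 Fraser complex genes and of 2 of the 3 alpha chain genes stood far lower in AA than in DMSO, while the main beta and gamma chains, Lamb1 and Lamc1, overlapped between the groups. Fras1 differed 6.55-fold and Lama3 5.13-fold between the group means, and Frem2 and Lama1 2.88-fold and 2.33-fold. Frem1 and Lamb2 stood higher in AA, by 1.94-fold and 1.62-fold. Values of Lama5 and Lamb3 also overlapped. By the call rule 2 members were higher, 4 were lower and 4 were not called, against 30.9% of all tested genes called in either direction, 22.3% higher and 8.66% lower. The groups did not overlap for the same 6 members, as for 46.4% of tested genes (33.4% with AA higher, 13.0% with AA lower). Nothing is read from these counts, since the members were chosen on this contrast. The median log2 difference of the 10 members was -0.17.

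**Figure D1:**
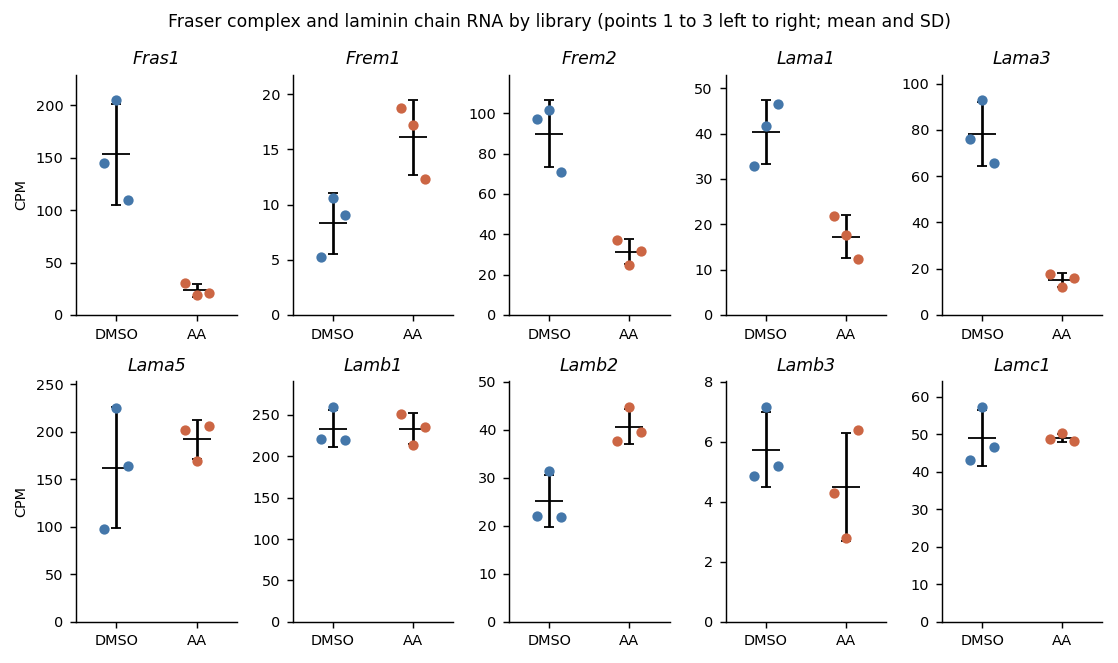
CPM of each member (vertical axes, from 0) in the 3 DMSO and 3 AA libraries, with points in the order of replicates 1 to 3 and bars for the mean and SD. Fras1, Frem2, Lama1 and Lama3 lie lower in all 3 AA libraries than in any DMSO library, Frem1 and Lamb2 lie higher, and the other members overlap.

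Fras1 encodes the founding protein of the Fraser complex, which spans the membrane of epithelial cells and carries a long chain of extracellular repeats. It lies on the plus strand of chromosome 5, between 96373955 and 96784728, in mm10 coordinates, and has 74 exons in its longest coding transcript. Its RNA was 144.6, 205 and 109.7 CPM in DMSO replicates 1, 2 and 3 and 30.2, 18.9 and 21.0 CPM in AA replicates 1, 2 and 3. The highest AA library stood far under the lowest DMSO library. The means were 153 ± 48.0 CPM in the DMSO libraries and 23.3 ± 6.04 CPM in AA (SD, n = 3 each), with a log2 difference of -2.64 (SE 0.23). Only 12 of the 14311 tested genes had a lower log2 difference. Set against DMSO replicate 3 alone, the DMSO library with the least Fras1, the difference was -2.21.

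Frem2 encodes the second membrane-spanning protein of the complex, with repeats like those of FRAS1. The gene lies on the minus strand of chromosome 3, between 53513938 and 53657355. Its RNA was 97.0, 101.7 and 70.9 CPM in the DMSO libraries and 37.2, 24.9 and 31.7 CPM in the AA libraries. Every AA library stood below every DMSO library, with a log2 difference of -1.50 (SE 0.19). Fras1 differed more than Frem2: within a library the ratio of Fras1 to Frem2 CPM was 1.49, 2.01 and 1.55 in DMSO and 0.812, 0.758 and 0.662 in AA. This ratio does not depend on how libraries are scaled, and its groups did not overlap.

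Frem1 encodes a secreted member of the complex that stabilises the other proteins, and it lies on the minus strand of chromosome 4, between 82897920 and 83052339. It was the rarest Fraser RNA in DMSO, at 5.23, 10.6 and 9.02 CPM, and reached 18.7, 17.2 and 12.3 CPM in AA. These values rest on 125 to 331 reads per library. The lowest AA library stood above the highest DMSO library by less than the spread within either group. The log2 difference was 0.91 (SE 0.27), or 0.66 with library medians equalised. It ran from 0.64 (without DMSO replicate 1) to 1.09 (without DMSO replicate 2) when each library was left out in turn. The ratio of Frem2 to Frem1 was 18.5, 9.56 and 7.86 in DMSO and 1.99, 1.44 and 2.58 in AA.

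Summed over the 3 genes, Fraser complex RNA was 251 ± 63.8 CPM in the DMSO libraries and 70.7 ± 13.5 CPM in AA (SD, n = 3 each). Levels of different genes can be compared only per length, as CPM per kb of the longest coding transcript. On that scale Fras1 made up 53.7% ± 3.83 of the summed Fraser RNA in DMSO and 25.8% ± 1.97 in AA (SD, n = 3 each). Frem1 made up 4.95% ± 1.88 in DMSO and 29.5% ± 5.67 in AA. The share of Frem2 was 41.4% ± 3.99 and 44.7% ± 4.71, a difference inside the spread of the libraries.

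The promoters of Frem2 and Frem1 are shown because their RNAs encode partners of the same complex and stood on opposite sides of their DMSO levels. Of the 10 members, 6 have an entry in the RefSeq promoter table (GRCm38.p6), which gives 250 bases before and 50 after a start, and Fras1, Lama1, Lama3 and Lamc1 have none. Capitals mark the letters CCAAT, the CCAAT box, on either strand (ATTGG on the other). The Frem2 window is chr3:53657306-53657605 and the Frem1 window, the more distal of 2 starts listed, is chr4:83052117-83052416, both on the minus strand.
Frem2: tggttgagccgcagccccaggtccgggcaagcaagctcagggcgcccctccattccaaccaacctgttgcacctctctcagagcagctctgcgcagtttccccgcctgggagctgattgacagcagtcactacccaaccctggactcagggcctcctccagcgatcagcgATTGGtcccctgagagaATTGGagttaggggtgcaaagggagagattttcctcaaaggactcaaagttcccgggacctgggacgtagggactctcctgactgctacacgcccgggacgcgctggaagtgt
Frem1: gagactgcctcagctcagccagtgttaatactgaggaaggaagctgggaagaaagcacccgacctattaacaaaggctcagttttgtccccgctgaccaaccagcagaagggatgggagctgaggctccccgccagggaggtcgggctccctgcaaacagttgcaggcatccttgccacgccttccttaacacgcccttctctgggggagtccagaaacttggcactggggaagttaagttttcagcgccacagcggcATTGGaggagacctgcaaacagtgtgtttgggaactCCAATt
Both windows hold 2 CCAAT boxes, which 37.4% of the 32817 promoter windows of this length hold at least once. Those of Frem2 lie before the start and those of Frem1 lie after it. The other Frem1 window, chr4:83021053-83021352, holds 0 CCAAT boxes, so the equal count depends on the window shown. Neither holds an AP-1 site (TGACTCA or its reverse complement), a GC box (GGGCGG or its reverse complement) or a TATA box (TATAAA or its reverse complement), which 5.20%, 35.6% and 13.6% of all windows hold. The windows of Lama5 and Lamb1, whose RNA levels overlapped between groups, hold 4 and 2 GC boxes. Lamb3 overlapped too, and each of its windows holds 0, as does that of Lamb2, which stood higher in AA. No AP-1 site was found in the windows of any of the 6 members.

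Lama3 encodes the alpha chain of the laminin that anchors hemidesmosomes, and a longer form that starts further upstream; the table has 1 row for the gene. The gene lies on chromosome 18 and spans 249 kb. Exons of antisense genes overlap it (Gm29200) and Fras1 (Gm42604); neither has a row of its own in the values used, and with the strand setting not given, reads of each pair cannot be told apart. Its RNA was 76.0, 92.8 and 65.7 CPM in the DMSO libraries and 17.7, 11.9 and 16.1 CPM in AA. All AA libraries lay far below all DMSO libraries, and 21 of the 14311 tested genes had a lower log2 difference than its own, -2.29 (SE 0.19). The difference against DMSO replicate 3 alone was -2.06.

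Lama1 encodes the alpha chain of the first laminin of the embryo, which stays in the basement membrane of some adult tubule segments. It lies on the plus strand of chromosome 17, between 67697259 and 67822647. Its RNA was 32.8, 41.8 and 46.6 CPM in the DMSO libraries and 21.8, 17.7 and 12.4 CPM in AA. The groups did not overlap, but the gap between them was smaller than for Lama3. The log2 difference was -1.20 (SE 0.22).

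Lama5 encodes the alpha chain found in most mature epithelial basement membranes, the tubule and the glomerulus included, and lies on the minus strand of chromosome 2, between 180176373 and 180225859. It had 97.2, 225 and 164 CPM in the DMSO libraries and 202, 169 and 206 CPM in AA. The DMSO libraries ranged more widely than the AA libraries and enclosed all 3 of them. The log2 difference was 0.32 (SE 0.25), and it was -0.01 without DMSO replicate 1, the library with the least Lama5.

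The make-up of the alpha chain RNA differed between the groups. Per kb and summed over Lama1, Lama2, Lama3, Lama4 and Lama5, Lama5 held 38.2%, 53.3% and 48.8% of alpha chain RNA in DMSO and 67.2%, 65.2% and 70.5% in AA. Lama3 held 32.3%, 23.8% and 21.1% in DMSO and 6.38%, 4.96% and 5.94% in AA. The share of Lama1 was 14.6% ± 2.45 in DMSO and 7.31% ± 1.97 in AA (SD, n = 3 each). For these 3 chains no AA library reached the range of the DMSO libraries. The summed alpha chain level was 29.7 ± 7.36 CPM per kb in DMSO and 24.9 ± 1.93 CPM per kb in AA, with overlapping libraries.

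Lamb1 encodes the beta chain of most laminins, and lies on the plus strand of chromosome 12, between 31265234 and 31329644. It was the most abundant member per length in both groups, at 38.0 to 44.9 CPM per kb in the DMSO libraries and 36.9 to 43.4 in the AA libraries. Its CPM were 221, 259 and 219.6 in DMSO and 251, 214 and 235 in AA. The groups overlapped, with a log2 difference of 0.00 (SE 0.13) as deposited and -0.27 with library medians equalised.

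Lamb2 encodes the beta chain of the glomerular and neuromuscular basement membranes, whose loss in humans causes Pierson syndrome with congenital nephrosis. It lies on the plus strand of chromosome 9, between 108479736 and 108490530. Its RNA was 22.1, 31.5 and 21.8 CPM in the DMSO libraries and 37.6, 44.7 and 39.6 CPM in AA. All AA libraries stood above all DMSO libraries. The log2 difference was 0.69 (SE 0.18), or 0.42 with library medians equalised, and it ran from 0.60 to 0.85 when each library was left out in turn. Lamb1 exceeded Lamb2 by 10.01, 8.24 and 10.07 times in CPM in the DMSO libraries and by 6.67, 4.78 and 5.95 times in the AA libraries.

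Lamb3 encodes the beta chain that pairs with LAMA3 in the hemidesmosome laminin, and lies on the plus strand of chromosome 1, between 193207699 and 193343878. It was rare, with 4.85, 7.16 and 5.20 CPM in the DMSO libraries and 4.28, 2.81 and 6.39 CPM in AA, from 50 to 223 reads per library. The groups overlapped, and the log2 difference was -0.33 (SE 0.29). It ran from -0.57 to -0.09 when each library was left out in turn.

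Lamc1 encodes the gamma chain shared by most laminins, and lies on the minus strand of chromosome 1, between 153218922 and 153332786. It had 43.0, 57.3 and 46.7 CPM in the DMSO libraries and 48.9, 50.3 and 48.2 CPM in AA. The AA libraries fell within the DMSO range, and the log2 difference was 0.01 (SE 0.15), or -0.25 with library medians equalised. The ratio of Lamb1 to Lamc1 CPM was 4.79 ± 0.314 in DMSO and 4.76 ± 0.456 in AA (SD, n = 3 each).

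Summed over the 7 laminin members, RNA was 594 ± 111 CPM in the DMSO libraries and 552 ± 37.8 CPM in AA, with overlapping libraries. Per length, the order in DMSO was Lamb1, Lama5, Fras1, Lama3, Frem2, Lamc1, Lamb2, Lama1, Lamb3 and Frem1. Lama5 at 14.2 ± 5.61 and Fras1 at 9.65 ± 3.03 CPM per kb did not differ beyond their spread, nor did neighbours from Fras1 to Lamc1 (6.43 ± 0.970), Lamb2 and Lama1, or Lamb3 and Frem1. In AA the order was Lamb1, Lama5, Lamb2, Lamc1, Frem2, Lama1, Frem1, Fras1, Lama3 and Lamb3. From Frem2 down to Lamb3 the libraries of each gene overlapped those of the next. In these orders Fras1 stood at rank 3 of 10 in DMSO and rank 8 in AA, and Lama3 at ranks 4 and 9. The exact ranks are not separated from those of their neighbours. That of Lama3 also rests on the length of its longest coding transcript.

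**Figure D2:**
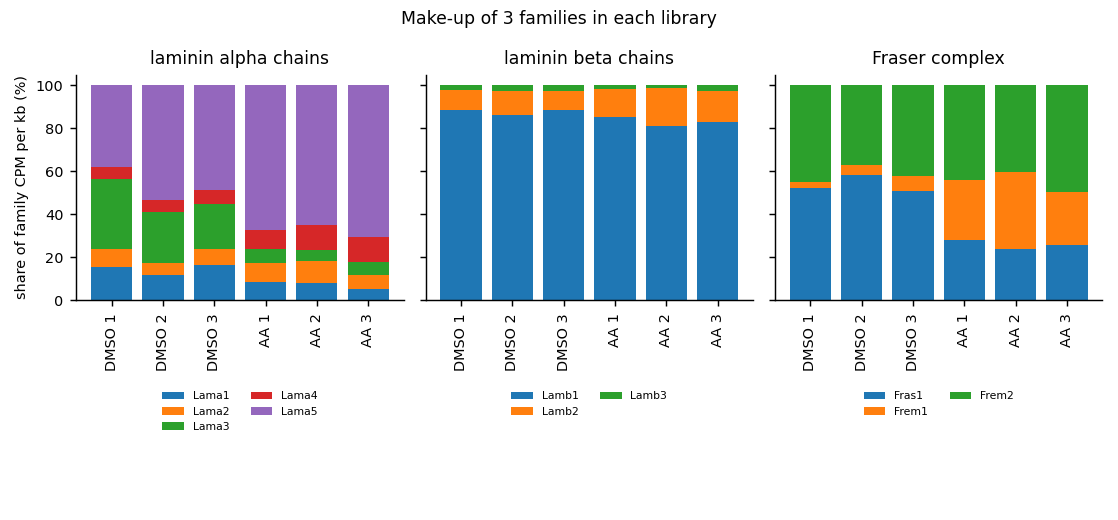
Share of each gene in the summed CPM per kb of its family (laminin alpha chains, laminin beta chains, Fraser complex) (vertical axes, percent) in each of the 6 libraries (horizontal axes). In AA the Lama3 share is 4.96% to 6.38% against 21.1% to 32.3% in DMSO, and the Frem1 share is 24.6% to 35.7% against 3.08% to 6.85%.

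Lama4, the alpha chain of vessel walls and mesenchyme, had 7.57, 12.8 and 11.2 CPM in the DMSO libraries and 14.7, 15.997 and 18.5 CPM in AA. The groups did not overlap, but the log2 difference of 0.62 (SE 0.22, limma adjusted p = 0.0577, n = 3 each) did not pass. It passed without DMSO replicate 2 (adjusted p = 0.0414) and in no other setting run. The difference was 0.36 (adjusted p = 0.195) with library medians equalised and 0.42 (adjusted p = 0.178) without DMSO replicate 1. Lamc3, a gamma chain, and Lama2, the alpha chain of muscle and nerve, showed log2 differences of 0.36 (adjusted p = 0.257) and 0.03 (adjusted p = 0.925), which did not pass either.

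A list of Fraser complex partners held 7 genes, of which 6 were tested. Of these, 2 fell, 0 rose and 4 did not pass (median log2 difference -0.57). Npnt encodes nephronectin, an integrin ligand held at the basement membrane by the complex. It fell from 167.6, 151 and 126 CPM in the DMSO libraries to 71.0, 74.5 and 68.7 CPM in the AA libraries, a log2 difference of -1.03 (SE 0.14, limma adjusted p = 0.000508). Vwa2 encodes AMACO, a matrix protein that binds FRAS1 and FREM2. It fell from 58.0, 94.8 and 76.5 CPM to 40.0, 27.8 and 31.2 CPM, a log2 difference of -1.18 (SE 0.20, adjusted p = 0.00174). Grip1, the adaptor that carries FRAS1 and FREM2 to the cell's basal side, showed a log2 difference of -0.74 (adjusted p = 0.0520) and did not pass. The log2 differences of Hmcn1, Itga8 and Hmcn2 were -0.41, 0.52 and 0.70 (adjusted p = 0.360, 0.0652 and 0.0676) and did not pass either. Itga8 and Hmcn2 stood higher in every AA library than in any DMSO library, and Grip1 stood lower. Grip1, Hmcn1, Itga8 and Hmcn2 are named after their values were seen. With library medians equalised or TMM factors Grip1 passed too, so that 3 of the 6 fell. These scalings also lower the median log2 difference of all tested genes, from 0.21 to -0.04 and 0.02.

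Of the 5 tested collagen IV chains, 3 fell, 0 rose and 2 did not pass; with library medians equalised or TMM factors 4 fell, Col4a2 among them. Col4a3, Col4a4 and Col4a5 encode the chains of the network that Alport syndrome disrupts. Col4a3 fell from 537, 785 and 594 CPM to 358, 285 and 367 CPM, a log2 difference of -0.91 (SE 0.17, limma adjusted p = 0.00324). Col4a4 showed a log2 difference of -0.94 (SE 0.18, adjusted p = 0.00382) and Col4a5 one of -1.17 (SE 0.21, adjusted p = 0.00232). All 3 lay lower in every AA library than in any DMSO library. Col4a1, of the network found in all basement membranes, had 301 ± 99.9 CPM in the DMSO libraries and 299.8 ± 11.5 CPM in AA (SD, n = 3; log2 difference 0.04, SE 0.20, adjusted p = 0.894), and is named after its values were seen. The ratio of Col4a1 to Col4a3 was 0.466, 0.530 and 0.399 in DMSO and 0.875, 1.03 and 0.798 in AA. With the term for the 2 library sets, the adjusted p was 0.0536 for Col4a3, 0.0585 for Col4a4 and 0.0775 for Col4a5.

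**Figure D3:**
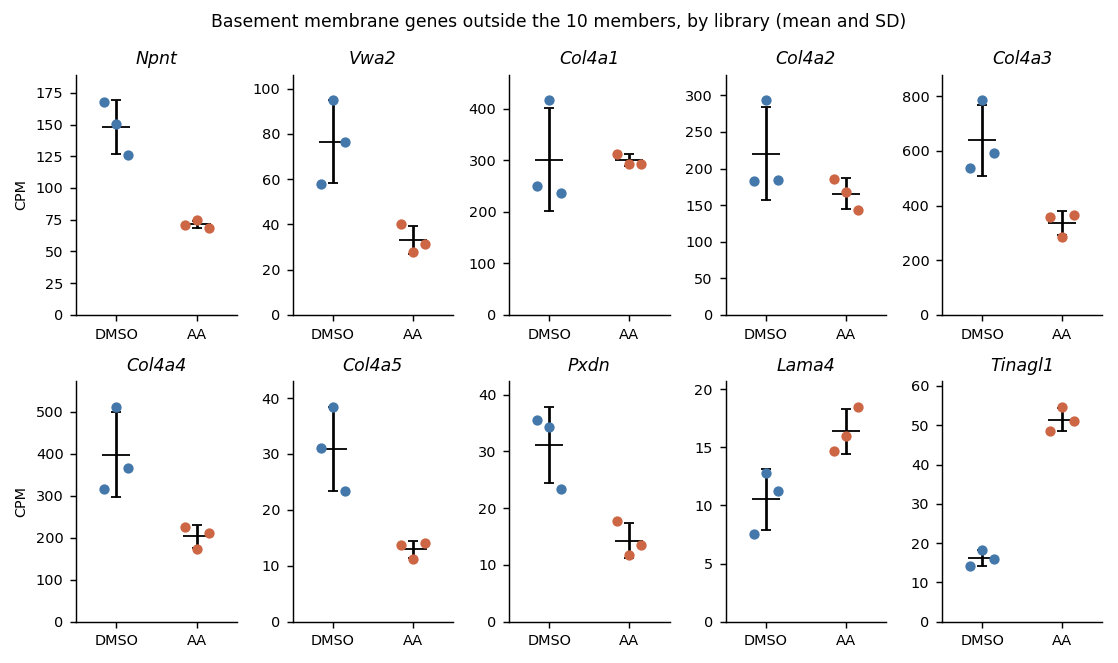
CPM (vertical axes, from 0) of 10 basement membrane genes outside the members in the 3 DMSO and 3 AA libraries, with mean and SD. Npnt, Vwa2, Col4a3, Col4a4, Col4a5 and Pxdn lie lower in every AA library, Lama4 and Tinagl1 lie higher, and Col4a1 and Col4a2 overlap.

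Of 13 tested laminin receptors and hemidesmosome genes, 7 rose, 0 fell and 6 did not pass (median log2 difference 0.54); 5 rose and 1, Dst, fell with library medians equalised. Sdc1, a heparan sulfate proteoglycan of the epithelial surface, rose from 11.7, 12.3 and 10.9 CPM to 31.7, 42.7 and 51.1 CPM, a log2 difference of 1.74 (SE 0.20, limma adjusted p = 0.000157). Sdc4, its relative at focal contacts, showed a log2 difference of 1.03 (SE 0.16, adjusted p = 0.00117). Cd151, a tetraspanin that holds laminin-binding integrins, had one of 1.22 (SE 0.18, adjusted p = 0.000866). Bcam, a receptor for the LAMA5 chain, had one of 1.26 (SE 0.29, adjusted p = 0.00829). The others that rose, named after their values were seen, were the integrin chains Itgb1 (0.54) and Itgb4 (1.10) and the hemidesmosome linker Plec (0.76).

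Of 14 tested nidogens, proteoglycans and other basement membrane proteins, 5 rose, 0 fell and 9 did not pass (median log2 difference 0.17); with library medians equalised 1 rose and 1, Ntn4, fell, and with the library-set term 2 rose and 0 fell. Tinagl1, a matrix protein related to the tubulointerstitial nephritis antigen, rose from 14.2, 18.3 and 15.98 CPM to 48.6, 54.6 and 51.1 CPM, a log2 difference of 1.62 (SE 0.16, limma adjusted p = 7.21e-05). Nid1, the linker between laminin and collagen IV, showed a log2 difference of 0.75 (SE 0.18, adjusted p = 0.00994), Sparc one of 0.72 (adjusted p = 0.00947) and Smoc2 one of 0.78 (adjusted p = 0.0460). Fbln1, named after its values were seen, also rose (0.72, adjusted p = 0.0472). Nid1, Sparc and Smoc2 lost the call with library medians equalised (adjusted p = 0.0529, 0.0769 and 0.120). Among the assembly enzymes 3 of 13 tested rose, 2 fell and 8 did not pass (median log2 difference 0.09); with library medians equalised 1 rose and 2 fell, and with the term for the 2 library sets 0 rose and 0 fell. Pxdn, the peroxidase that links collagen IV molecules to one another, fell from 35.6, 34.3 and 23.4 CPM to 17.7, 11.7 and 13.4 CPM (log2 difference -1.07, SE 0.22, adjusted p = 0.00458; -0.69 and adjusted p = 0.132 with the library-set term). Colgalt1, which adds sugars to collagen, and the crosslinking enzymes Loxl2 and Lox rose, with log2 differences of 0.62, 0.95 and 0.97 (adjusted p = 0.0124, 0.0141 and 0.0363). P3h2, a collagen prolyl hydroxylase named after its values were seen, fell (-0.46, adjusted p = 0.0435).

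**Figure D4:**
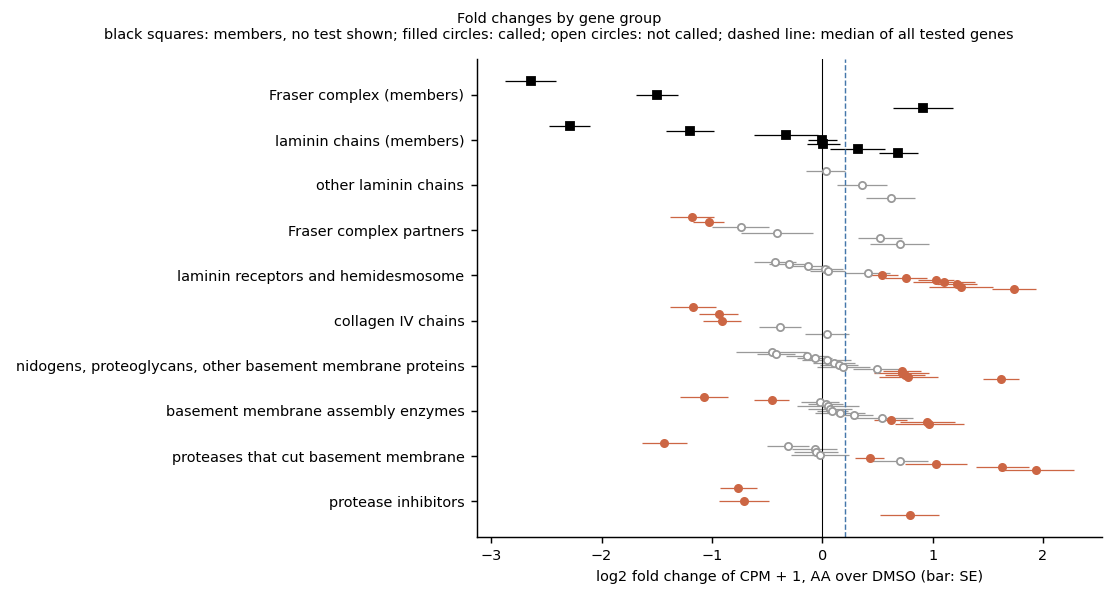
Log2 fold change of CPM + 1, AA over DMSO (horizontal axis, bars for the SE), of the members and of the tested genes reported from each list (rows). Members are shown without a test, filled circles are genes called at an adjusted p under 0.05, and the dashed line is the median of all tested genes at 0.21.

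Over all 8 lists, 22 of 69 tested genes rose, 10 fell and 37 did not pass (median log2 difference 0.11), beside 22.3% higher and 8.66% lower among all tested genes. Equalising library medians made the split 12 higher and 14 lower, and TMM factors, another scaling, made it 14 and 14. The total of 32 calls became 15 with the library-set term, 21 without AA replicate 2 and 7 with no filter on low values. Of the 26 called genes that are named by rule, 18 stayed called whichever library was left out. Smoc2, Colgalt1, Loxl2, Lox, Ctss, Reck and Timp2 lost the call without AA replicate 2. Npnt, Sdc1, Tinagl1 and Mmp2 stayed called in every setting run.

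The lower members were also long genes. Genomic length was 411 kb for Fras1, 249 kb for Lama3, 143 kb for Frem2 and 125 kb for Lama1, while Lamb2 spanned 10.8 kb, Lama5 49.5 kb and Lamb1 64.4 kb. Length and direction did not go together throughout: Frem1 (154 kb) stood higher, and Lamb3 (136 kb) and Lamc1 (114 kb) overlapped between the groups. Across the 10 members Spearman's rho between genomic length and log2 difference was -0.636, a description over genes measured in the same libraries. Over 13871 tested genes with a known length rho was -0.281. The median log2 difference was 0.35 for genes under 10 kb (3689 genes), -0.12 for genes of 100 to 200 kb (1161 genes) and -0.40 for genes over 200 kb (711 genes), and 40.1% of the last class were called lower. The part of gene length in the members' values was not tested.

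**Figure D5:**
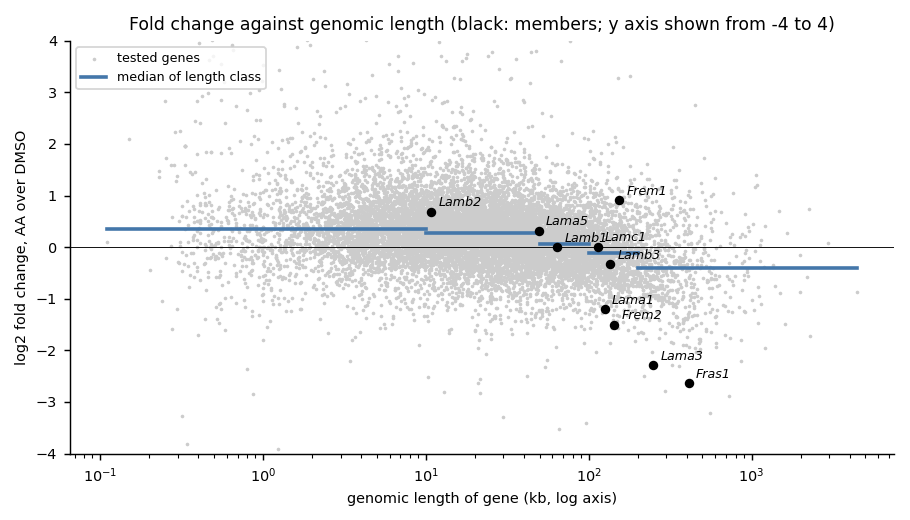
Log2 fold change (vertical axis, AA over DMSO, axis cut at both ends) against genomic length (horizontal axis, kb, log scale) for tested genes in grey, the 10 members in black and the median of each length class as a blue line. Fras1 and Lama3 lie below the median of -0.40 of their length class, and Frem1 lies above the -0.12 of its class.

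Some markers of other kidney cells were higher in AA, beside the differences above. Of 67 tested markers in 11 lists, 24 rose and 0 fell, or 17 rose and 1 fell with library medians equalised. Among all 14311 tested genes 22.3% rose and 8.66% fell, or 1676 rose and 2381 fell with library medians equalised. Summed markers of podocytes ran from 64.9 to 87.9 CPM in the DMSO libraries and from 93.9 to 144 CPM in AA (1 of 8 rose). Podxl was the largest part of these sums (45.5 ± 12.3 CPM in DMSO, 65.1 ± 16.4 CPM in AA, SD, n = 3 each) and was not called. The gene that rose was Synpo (log2 difference 1.05), and the median log2 difference of the 8 was 0.11, beside 0.21 for all tested genes. Sums for endothelium were 225 to 356 and 352 to 404 CPM (2 of 9), for fibroblasts and pericytes 86.8 to 132 and 167 to 193 CPM (3 of 6), and for smooth muscle and mesangium 17.8 to 22.3 and 30.4 to 36.1 CPM (1 of 5). For parietal epithelium they were 25.2 to 45.1 and 59.5 to 83.2 CPM (2 of 5). Sums for the thick ascending limb were 178 to 484 and 331 to 1346 CPM (3 of 6), and for collecting duct principal cells 17.5 to 36.2 and 54.6 to 102 CPM (3 of 7). Intercalated cell sums were 8.41 to 10.2 and 13.0 to 29.6 CPM (2 of 6), and those of the distal convoluted tubule 54.7 to 71.6 and 39.5 to 103 CPM (0 of 3). Thin limb sums, mostly Aqp1 of the proximal tubule, were 1486 to 1619 and 1192 to 1697 CPM (4 of 6), and leukocyte sums 175 to 266 and 159 to 214 CPM (3 of 6). Csf1r made up most of the leukocyte sums (205 ± 47.0 CPM in DMSO, 144.5 ± 30.8 CPM in AA; SD, n = 3 each), while Cd68 rose from 0.376 to 1.25 CPM in the DMSO libraries to 20.1 to 38.4 CPM in AA, and Lyz2 and Cd79a rose by 1.21 and 1.30 on the log2 scale. No marker was at 0 in all libraries of a group. Proximal tubule markers, which fit the labelled tissue, summed to 35570.0 to 51839 CPM in the DMSO libraries and 31706 to 45528 CPM in AA, and 1 of 12 rose and 4 fell. Kap made up most of these sums (23635 ± 5956 CPM in DMSO, 25582 ± 6771 CPM in AA, SD, n = 3 each) and was not called. Lrp2, Cubn, Slc22a30 and Slc5a10 fell (log2 differences -1.44, -1.11, -1.09 and -0.90), Slc5a2 rose (0.71) and 7 did not pass. With library medians equalised 0 of these 12 rose and 6 fell, Slc22a6 and Hnf4a among them. With TMM factors 0 rose and 5 fell. The part of other cells in the higher values of Frem1, Lamb2 and the receptor genes was not tested.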

How the data were processed

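Polyadenylated RNA of 6 libraries (3 AA, 3 DMSO) was read from TruSeq Stranded mRNA libraries, per the labels' protocols. The submitters' processing notes name bcl2fastq 2.19, kallisto and mm10; how transcripts were joined to genes, with which annotation and strand setting, is not given in the sources used here. For each gene the authors deposited log10 values, log10(CPM + 1): undone, each column sums to 1000000, and 100% of values are whole reads within 0.1 read. Values were turned back to CPM and fitted as log2(CPM + 1) with limma 3.58.1 (variance trend, R 4.3.3) for genes reaching 1 CPM in 3 or more libraries; p-values are two-sided and adjusted by Benjamini and Hochberg over 14311 genes. The fit was tested on simulated data. Neither of the exon-overlapping antisense genes of Fras1 and Lama3 is among the rows used. Coordinates and lengths come from GENCODE M21 (GRCm38, the build of mm10), matched by symbol. Per length means the longest coding transcript.

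The members, lists and rules were chosen with earlier results of these data known. Named genes are all members, the other laminin chains and, of each list, up to 4 called genes with the smallest adjusted p; some genes under this rule are not reported here, though counts include them. Alternatives were equalised library medians, TMM factors, pseudocounts of 0.1 and 5, no filter, a filter of 4 CPM, the replicate number as a block, voom on recovered reads, a term for the library sets and leaving out each library.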

Additional observations from a re-analysis of the deposited data

How the results depend on the processing

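As a description, over the alternatives with all libraries the log2 difference ran from -2.91 to -2.21 for Fras1, -2.55 to -2.04 for Lama3, -1.76 to -1.18 for Frem2, -1.46 to -1.04 for Lama1, 0.66 to 0.98 for Frem1 and 0.42 to 0.86 for Lamb2. The members called numbered 6, and 3 with no filter, 4 with library medians equalised or the library-set term, and 4 to 6 when a library was left out; their median fold change ran from -0.41 to -0.08, and from -0.29 to -0.05 when a library was left out. Over all genes 4426 were called (3187 higher, 1239 lower), 1375 with no filter, 1481 with the library-set term and 2645 to 3980 when a library was left out, the lowest without AA replicate 2. With library medians equalised the split was 1676 higher and 2381 lower, and the median of the pathway genes was -0.16 in place of 0.11, or 0.05 to 0.30 when a library was left out. Pathway calls numbered 32, 7 with no filter, 15 with the library-set term and 21 to 30 when a library was left out. The cause of these changes was not tested. Under the term for library sets, which puts DMSO replicates 1 and 2 apart, the contrast uses a single DMSO library, replicate 3.

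Deviations of same-numbered libraries from their group means correlated at -0.109, -0.156 and -0.0151, and those of differently numbered libraries at -0.0738 to 0.194. No shared deviation was thus seen, but these values cannot show whether animals or preparations were matched. With the replicate block 3813 genes, 6 members and 27 pathway genes were called, with medians of -0.17 and 0.11; of the 26 named pathway calls the block ended those of Smoc2 and Timp2. Among the members, depth limits Lamb3 (50 to 223 reads) and Frem1 (125 to 331 reads) most.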

Other observations

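Genes of proteases that cut basement membrane changed in both directions: of 10 tested, 4 rose, 1 fell and 5 did not pass. Mep1b, which encodes the beta subunit of meprin, a brush border protease that cleaves laminin, fell from 712, 687 and 502 CPM in the DMSO libraries to 195.6, 209 and 306 CPM in the AA libraries (log2 difference -1.43, SE 0.20, limma adjusted p = 0.000547, n = 3 each). Mep1a, its alpha subunit, named after its values were seen, had 3159 ± 406 and 3008 ± 229 CPM (SD, n = 3; log2 difference -0.07, adjusted p = 0.835). The ratio of Mep1a to Mep1b was 4.83, 4.87 and 5.37 in DMSO and 14.5, 14.0 and 10.7 in AA. Mmp2, a gelatinase, rose from 1.51, 1.38 and 1.57 CPM to 5.94, 7.24 and 6.97 CPM (log2 difference 1.63, SE 0.24, adjusted p = 0.000724). Plat, the tissue plasminogen activator, and Ctss, a lysosomal protease, had log2 differences of 1.94 (adjusted p = 0.00222) and 1.03 (adjusted p = 0.0192), and Ctsl, named after its values were seen, one of 0.43 (adjusted p = 0.0296).

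Protease inhibitors also changed in both directions. Timp3, a matrix-bound inhibitor of metalloproteinases, fell from 1389, 1483 and 1109 CPM to 783, 721 and 835 CPM (log2 difference -0.76, SE 0.17, limma adjusted p = 0.00675, n = 3 each), and Reck, a membrane-anchored inhibitor, showed a log2 difference of -0.71 (adjusted p = 0.0351). Timp2, a soluble metalloproteinase inhibitor, rose (0.79, adjusted p = 0.0432), and lost the call with library medians equalised (adjusted p = 0.159). With the term for the 2 library sets the calls of Timp3 (-0.51, adjusted p = 0.162), Reck (-0.53, adjusted p = 0.330) and Timp2 (0.62, adjusted p = 0.304) were lost. Without AA replicate 2 the calls of Ctss, Reck and Timp2 were lost (adjusted p = 0.0588, 0.109 and 0.108). Ctss was also lost without DMSO replicate 3 or AA replicate 1, Reck without DMSO replicate 1, DMSO replicate 2 or AA replicate 3, and Timp2 without DMSO replicate 1, DMSO replicate 2 or AA replicate 1.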
